A study of Mus musculus with 6 samples.

Results

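GIT, PIX and PAK proteins form a signalling module beside the small GTPase Rac1, and 8 of its genes are described here: Git1, Git2, Arhgef6, Arhgef7, Pak1, Pak2, Pak3 and Rac1. They were chosen by name, as 8 of the 52550 gene IDs in the count table, and were matched to Ensembl IDs by symbol. All their splicing events were taken as well, 50 of the 40961 events listed. RNA came from the hippocampus of 6 mice, all males of the C57BL/6 J strain. Each had received an adeno-associated virus (AAV) in the CA1 area on both sides, at an age of 8 weeks. In the control group (3 mice, labelled wild type) the virus carried a control shRNA. In the L-DL KD group (3 mice, labelled both hnRNP DL KD and hnRNP DL-/-) it carried shRNAs against L-DL, the long isoform of the RNA-binding protein hnRNP DL. Both groups therefore carry a virus, and the methods give the control virus a higher titre. The shRNAs were driven by the H1 promoter, which is active in most cell types, while a zsGreen marker was driven by the neuronal CamkIIα promoter. The tissue is whole hippocampus, so cells that took up no virus are included.

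GIT1 and GIT2 are scaffolds that inactivate Arf GTPases. They bind tightly to the PIX proteins, α-PIX (Arhgef6) and β-PIX (Arhgef7), which are exchange factors that load Rac1 and Cdc42 with GTP. PIX proteins in turn bind the p21-activated kinases PAK1, PAK2 and PAK3, which Rac1-GTP and Cdc42-GTP activate and which act on actin through LIM kinases and cofilin. In hippocampal neurons the module is known for its place in dendritic spines and at synapses.

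The libraries held 16052529 to 17913064 gene counts and 6760349 to 7939931 splice junction counts. Hnrnpdl, the targeted gene, was at 176, 184 and 171 CPM (counts per 1000000, scaled by TMM) in the control libraries. The 3 libraries that carry the L-DL KD label had 217, 150 and 173 CPM, with an adjusted p of 0.898 in edgeR's quasi-likelihood test. The gene count pools all isoforms, so it does not measure L-DL alone, and the knockdown was not visible in it. The paper assessed the knockdown on protein, by immunoblotting of hippocampus, and reports reduced L-DL. Cell type markers moved between the groups. All 8 neuron markers had lower means in L-DL KD and 7 of them passed the test, beside 15.0% of all genes called lower. Their summed level was 5707 to 6009 CPM in control and 3381 to 4345 CPM in L-DL KD. All 12 microglia markers were called higher, beside 15.6% of all genes, with sums of 1767 to 2202 CPM in control and 3489 to 4508 CPM in L-DL KD. No marker of either list was at 0 in every library. In bulk tissue, fewer cells of a type and less RNA per cell cannot be told apart, and the part of these shifts in the results that follow was not tested.

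The alternative exons on which the results turn are shown first, because they mark where the proteins of each family differ between splice forms. Sequences were read 5′ to 3′ from the GENCODE M21 transcripts (GRCm38), with the alternative exon in capitals and 20 bases of each neighbouring exon in lower case. The Git1 exon of 27 nt (chr11:77502829-77502855, plus strand) is exon 8 of 20 in its transcript. The Git2 exon of 6 nt (chr5:114753148-114753153, minus strand) is exon 9 of 19. The Git2 exon of 90 nt (chr5:114737348-114737437, minus strand) is exon 16 of 20. The Arhgef7 exon of 177 nt (chr8:11824505-11824681, plus strand) is exon 18 of 21. The Arhgef6 exon of 21 nt (chrX:57241806-57241826, minus strand) is exon 17 of 22. The Pak3 exon of 45 nt (chrX:143713894-143713938, plus strand) is exon 4 of 16. The Rac1 exon of 57 nt (chr5:143509597-143509653, minus strand) is exon 4 of 7 and gives the splice form known as Rac1b. All lie in coding sequence.
Git1, 27 nt: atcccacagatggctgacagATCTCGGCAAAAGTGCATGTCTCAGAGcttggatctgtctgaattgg
Git2, 6 nt: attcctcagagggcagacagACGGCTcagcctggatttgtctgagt
Git2, 90 nt: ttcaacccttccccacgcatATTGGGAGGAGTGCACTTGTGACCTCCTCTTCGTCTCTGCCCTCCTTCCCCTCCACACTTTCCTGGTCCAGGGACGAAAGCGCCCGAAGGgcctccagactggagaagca
Arhgef7, 177 nt: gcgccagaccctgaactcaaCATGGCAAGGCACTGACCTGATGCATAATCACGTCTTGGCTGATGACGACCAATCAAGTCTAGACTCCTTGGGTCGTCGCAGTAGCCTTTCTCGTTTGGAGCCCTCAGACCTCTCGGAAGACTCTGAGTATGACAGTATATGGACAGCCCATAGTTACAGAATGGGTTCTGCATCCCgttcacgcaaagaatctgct
Arhgef6, 21 nt: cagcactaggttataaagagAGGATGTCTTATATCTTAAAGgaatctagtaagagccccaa
Pak3, 45 nt: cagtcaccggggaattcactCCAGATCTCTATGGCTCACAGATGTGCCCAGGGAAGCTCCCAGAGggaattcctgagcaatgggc
Rac1, 57 nt: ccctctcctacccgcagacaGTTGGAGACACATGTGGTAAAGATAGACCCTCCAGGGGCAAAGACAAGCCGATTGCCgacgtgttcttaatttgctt

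Each of these exons has a length divisible by 3, so its use leaves the downstream reading frame as it is. Among all exons of the 8 genes listed as skipped, 19 of 34 (55.9%) had such a length, beside 42.2% of the 25992 such exons in the whole table. The Git1 exon of 27 nt and the Git2 exon of 6 nt have similar neighbouring exons. The last 20 bases of the exon before matched at 16 positions. The first 20 bases of the exon after matched at 3 positions as annotated. When the Git2 exon was read from its later 3′ splice site, 3 bases downstream, 14 of 17 bases matched. That offset was chosen after the first comparison had been seen.

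The first comparison asked whether the level of the 8 genes differed between L-DL KD and control hippocampus. Git1 and Pak1 fell, and no member rose past the test. Among all 17621 genes tested, 30.5% were called at an adjusted p under 0.05, with 15.0% lower and 15.6% higher in L-DL KD, so 2 of 8 members (25.0%) is close to the share of all genes. The groups did not overlap for 6 of the 8 genes (75.0%), beside 47.2% of all genes tested. The median log2 fold change was 0.09 over the 8 genes and 0.01 over all genes.

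**Figure D1:**
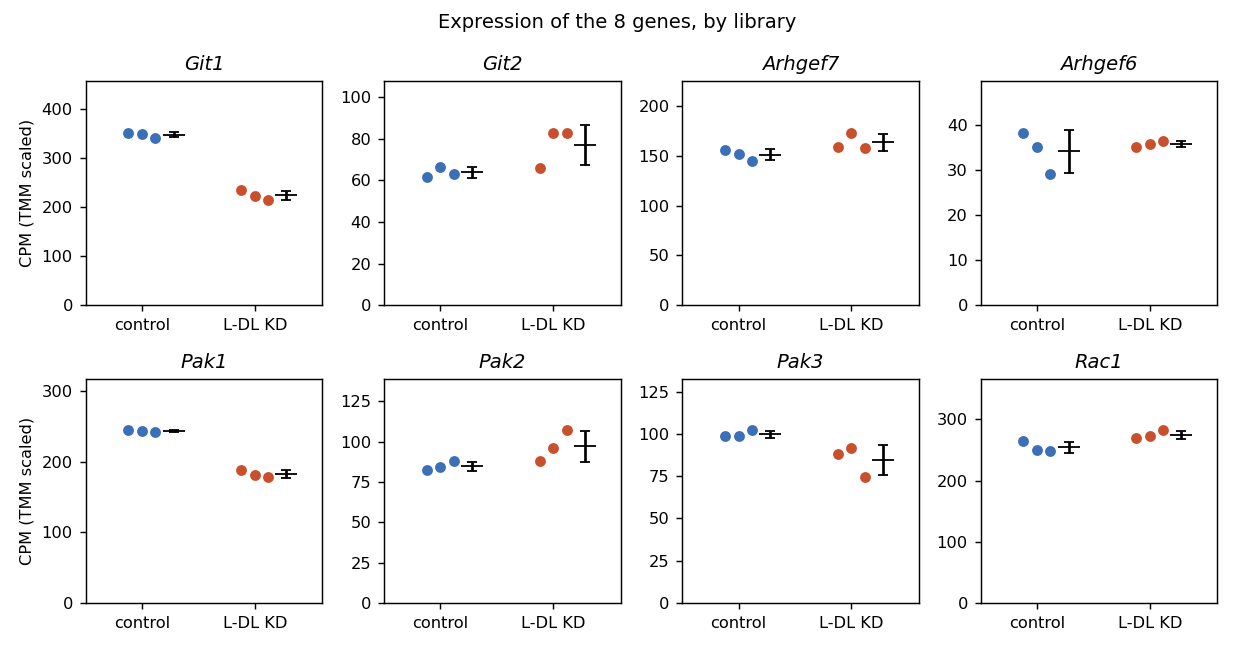
Expression of the 8 genes in CPM (TMM scaled; each axis starts at 0) in the 3 control and 3 L-DL KD libraries. Points are libraries, and the black line and bar give the mean and SD (n = 3). Git1 fell from a mean of 347 to 223 CPM and Pak1 from 243 to 182 CPM, with no overlap between the groups.

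Among the scaffolds, Git1 was at 351, 348 and 341 CPM in control and at 234, 222 and 214 CPM in L-DL KD. Every L-DL KD library lay far below every control library. The mean went from 347 ± 5.02 to 223 ± 10.1 CPM (SD, n = 3), a log2 fold change of -0.63 ± 0.06 (SE) with an adjusted p of 0.0004 by edgeR. The gene thus fell by 35.5%.

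Git2, the paralog that shares the Arf GTPase-activating domain, was at 61.8, 66.6 and 63 CPM in control and at 66.1, 82.9 and 82.6 CPM in L-DL KD. Replicate 1 of L-DL KD lay within the control range, and the other two L-DL KD libraries lay above it. The log2 fold change of 0.27 ± 0.10 (SE) had an adjusted p of 0.068 by edgeR. Git2 passed the test when L-DL KD replicate 1 was left out (adjusted p = 0.00304 by edgeR) and with scaling by library size (adjusted p = 0.0478).

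The PIX exchange factors did not pass the test. Arhgef7 (β-PIX) was at 156, 152 and 145 CPM in control and at 159, 173 and 158 CPM in L-DL KD. The L-DL KD values were all above the control values, by a narrow margin (log2 fold change 0.11 ± 0.07 SE, adjusted p = 0.253 by edgeR). Arhgef6 (α-PIX), a gene in which loss of function is linked to X-linked intellectual disability, was at 38.2, 35.0 and 29.0 CPM in control. It was at 35.0, 35.8 and 36.4 CPM in L-DL KD, inside the control range (log2 fold change 0.07 ± 0.11 SE, adjusted p = 0.68 by edgeR). Its sign turned to -0.04 without control replicate 3.

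Of the kinases, Pak1 was at 244, 243 and 242 CPM in control and at 188, 181 and 178 CPM in L-DL KD. The groups lay well apart, and the control libraries differed by less than 3 CPM. The log2 fold change was -0.41 ± 0.06 (SE) with an adjusted p of 0.00173 by edgeR, so Pak1 fell by 24.9%. Pak3, which like Pak1 is enriched in neurons, was at 98.7, 98.5 and 102 CPM in control and at 87.8, 91.6 and 74.6 CPM in L-DL KD. Its L-DL KD values were all lower, without passing the test (log2 fold change -0.24 ± 0.09 SE, adjusted p = 0.0717 by edgeR). Pak2, the kinase of the group found in most cell types, was at 82.2, 84.4 and 87.9 CPM in control and at 88.2, 96.3 and 107 CPM in L-DL KD. Its L-DL KD values were all higher, the lowest of them by less than 1 CPM (log2 fold change 0.20 ± 0.08 SE, adjusted p = 0.114 by edgeR). Without L-DL KD replicate 1, Pak2 and Pak3 passed the test, with adjusted p-values of 0.0234 and 0.0486 by edgeR. Without L-DL KD replicate 3, the log2 fold change of Pak2 was 0.12 (adjusted p = 0.273 by edgeR) and that of Pak3 was -0.15 (adjusted p = 0.153).

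Rac1, the GTPase that PIX proteins load and PAKs sense, was at 265, 250 and 248 CPM in control and at 270, 273 and 282 CPM in L-DL KD. All L-DL KD values were above the control values (log2 fold change 0.11 ± 0.06 SE, adjusted p = 0.205 by edgeR).

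Levels can be compared between genes per kilobase of transcript, here the longest coding transcript. In control hippocampus Git1 led at 98.7 ± 1.43 CPM per kb (SD, n = 3), followed by Pak1 at 79.2 and Rac1 at 61.1 CPM per kb. Arhgef7 followed at 30.7, Pak2 at 14.8, Git2 at 12.7, Pak3 at 11.5 and Arhgef6 at 7.45 CPM per kb. No neighbours in this control order overlapped in their library values. In L-DL KD the highest means were those of Rac1, at 66.1 ± 1.49 CPM per kb (SD, n = 3), Git1 at 63.6 and Pak1 at 59.5 CPM per kb. There the ranges of Rac1 (64.9 to 67.8) and Git1 (60.9 to 66.6 CPM per kb) overlapped, and so did those of Git1 and Pak1 and of Pak2 and Git2. The lower end of the control order depends on the length used: per kb of all annotated exons, Arhgef7 stood at 9.59, below Pak2 at 12.5 and Pak3 at 10.4 CPM per kb, and Git2 at 3.67, below Arhgef6 at 3.98 CPM per kb.

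The balance between paralogs was compared as a ratio of CPM within each library, in which the scaling cancels. Git1 was 5.67, 5.23 and 5.41 times Git2 in control and 3.54, 2.68 and 2.59 times Git2 in L-DL KD. The groups did not overlap, and the mean log2 ratio differed by -0.90. Pak1 was 2.97, 2.88 and 2.75 times Pak2 in control and 2.13, 1.88 and 1.67 times Pak2 in L-DL KD, a log2 difference of -0.61 without overlap. Pak3 was 1.2, 1.17 and 1.16 times Pak2 in control and 0.995, 0.951 and 0.697 times Pak2 in L-DL KD, a log2 difference of -0.44 without overlap (-0.28 without L-DL KD replicate 3). The control libraries thus had more Pak3 than Pak2 counts, and the L-DL KD libraries had fewer. Arhgef7 to Arhgef6 overlapped between the groups (log2 difference 0.03), and so did Pak1 to Pak3 (log2 difference -0.17). Each of the 3 ratios without overlap had an exact permutation p of 0.1 (two-sided), the smallest that 3 against 3 allows, and an adjusted p of 0.167 over the 5 pairs, so none could pass 0.05. The neuron markers fell and the microglia markers rose in the same libraries, and their part in these ratios was not tested.

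The other genes of the pathway were taken as 7 lists of 82 genes arranged by role, of which 6 lists are described one by one. Of the 82 genes, 19 were called higher and 21 were called lower in L-DL KD, which is 48.8% called beside 30.5% of all genes. The median log2 fold change over the 82 genes was 0.00. In the lists that follow, rose and fell mean called at an adjusted p under 0.05 by edgeR. Among all genes, 15.6% were called higher and 15.0% were called lower.

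**Figure D2:**
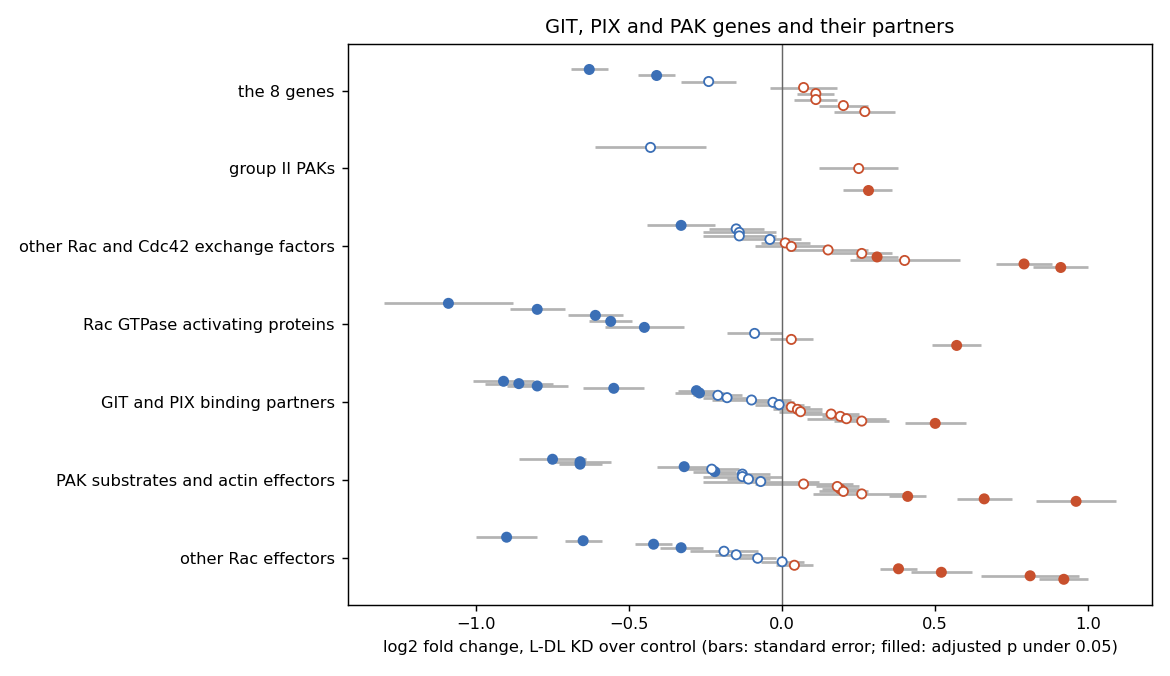
Log2 fold change (L-DL KD over control) of the 8 genes and of 6 lists of partner genes, 1 point for each gene with its standard error. Filled points have an adjusted p under 0.05 by edgeR. Of the Rac GTPase activating proteins 5 of 8 were called lower and 1 was called higher.

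Of the 8 Rac GTPase activating proteins, which switch Rac off, 5 fell and 1 rose, with a median log2 fold change of -0.51. Arhgap15 fell by the most, from 12.6 ± 2.45 to 5.9 ± 1.25 CPM (SD, n = 3; log2 fold change -1.09, adjusted p = 0.00691 by edgeR). Srgap2 rose, from 114 ± 3.11 to 169 ± 15.6 CPM (SD, n = 3; log2 fold change 0.57). Of 13 other exchange factors for Rac and Cdc42, 3 rose and 1 fell, together close to the 30.5% of all genes called. Vav2 rose from 24.5 ± 1.24 to 45.9 ± 2.74 CPM (SD, n = 3; log2 fold change 0.91).

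Of 19 binding partners of GIT and PIX, 1 rose and 6 fell, together not far above the 30.5% of all genes called. Gphn (gephyrin, the scaffold of inhibitory synapses) fell by the most, from 68.1 ± 1.56 to 36.3 ± 4.29 CPM (SD, n = 3; log2 fold change -0.91, adjusted p = 0.000494 by edgeR). Ppfia4, a liprin-α, rose from 134 ± 5.94 to 188 ± 23.2 CPM (SD, n = 3; log2 fold change 0.50).

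Of 18 PAK substrates and actin effectors, 4 rose and 5 fell. Arpc1b, a subunit of the Arp2/3 complex that branches actin, rose from 75.3 ± 14.5 to 147 ± 4.45 CPM (SD, n = 3; log2 fold change 0.96, adjusted p = 0.00142 by edgeR). Ctbp1, a transcriptional corepressor, fell from 190 ± 3.73 to 113 ± 19.7 CPM (SD, n = 3; log2 fold change -0.75). Of 13 other Rac effectors, 4 rose and 4 fell. Wasf2, a WAVE protein that activates the Arp2/3 complex, rose (log2 fold change 0.92), and Baiap2, which links Rac1 to WAVE proteins, fell (log2 fold change -0.90). Of the 3 group II PAKs, Pak6 rose from 52.8 ± 1.6 to 64.1 ± 4.37 CPM (SD, n = 3; log2 fold change 0.28, adjusted p = 0.0243 by edgeR) and no other passed the test.

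The 3 pathway genes whose log2 CPM followed Git1 most closely over the 6 libraries were Nckap1 (r = 0.993), Rasgrf1 (r = 0.993) and Chn1 (r = 0.992). The libraries fall into the 2 groups, so these values mostly reflect that all 4 genes were lower in L-DL KD.

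The second comparison asked whether the members were spliced differently. PSI is the share of transcripts that include a segment, from junction reads divided by the effective length of each form. For an event that sets 1 exon against another, it only compares the reads of the 2 forms. It is then not the share of transcripts with the exon. Of the 50 events of the 8 genes, 25 had enough reads of both forms to be tested, and none was called at an adjusted p under 0.05 by edgeR. Among all 18829 events tested, 48 (0.255%) were called. At an unadjusted p under 0.05, 5 of the 25 member events (20%) and 13.3% of all events passed in edgeR. With limma on the log2 ratio of the forms, 0 member events were called. There 7 of the 25 passed at an unadjusted p under 0.05, beside 13.1% of all events. On data simulated from these libraries the adjusted test missed most of the events that had been changed, so an event that was not called is not shown to be unchanged. The groups did not overlap for 8 of the 25 tested events (32.0%), beside 18.4% of all events tested. Git1 had 4 of these 8.

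**Figure D3:**
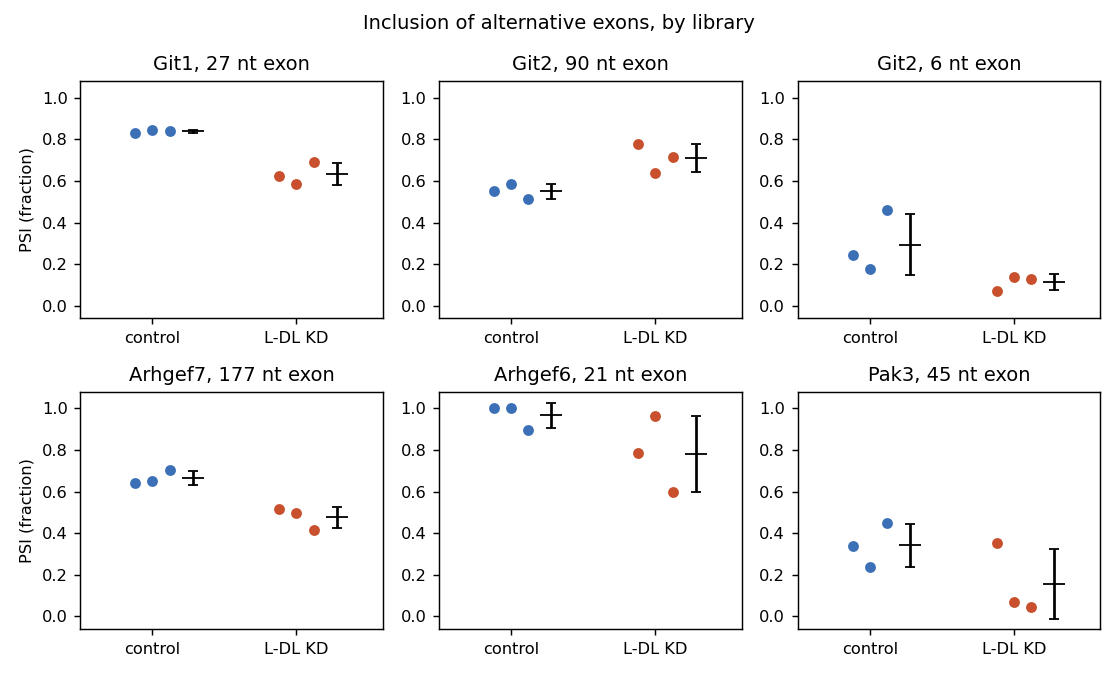
PSI (fraction of transcripts with the exon) of 6 alternative coding exons in each library. Points are the 3 control and 3 L-DL KD libraries, and the black line and bar give the mean and SD (n = 3). The Git1 exon of 27 nt went from 0.838 to 0.634, and the groups also lie apart for both Git2 exons and the Arhgef7 exon but overlap for Arhgef6 and Pak3. No exon shown passed the adjusted test.

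The Git1 exon of 27 nt had a PSI of 0.830, 0.845 and 0.840 in control and 0.624, 0.587 and 0.692 in L-DL KD. The control libraries lay within 0.015 of each other, and every L-DL KD library was lower by more than 0.1. The mean PSI was 0.838 ± 0.00751 in control and 0.634 ± 0.0531 in L-DL KD (SD, n = 3), on 240 to 451 junction reads a library. The change of the log2 odds of inclusion was -1.58 ± 0.30 (SE), with an adjusted p of 0.0595 by edgeR. Over the alternatives the adjusted p ran from 0.0514 to 0.252.

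The forms with and without the Git1 exon can also be read one by one. As junction CPM, reads per 1000000 junction counts summed over all listed events, inclusion reads were 54.4 ± 2.66 in control and 23.1 ± 1.34 in L-DL KD (SD, n = 3), a ratio of 0.424 without overlap (two-sided exact permutation p = 0.1, the smallest possible). Skipping reads were 8.94 ± 0.657 junction CPM in control and 11.4 ± 1.93 in L-DL KD (SD, n = 3), with overlapping groups (exact permutation p = 0.3). The fall of the Git1 gene thus stood beside a lower level of the form that includes the exon, while the mean of the skipping form was not lower. Neuron markers fell in the same libraries, and their part in this was not tested.

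**Figure D4:**
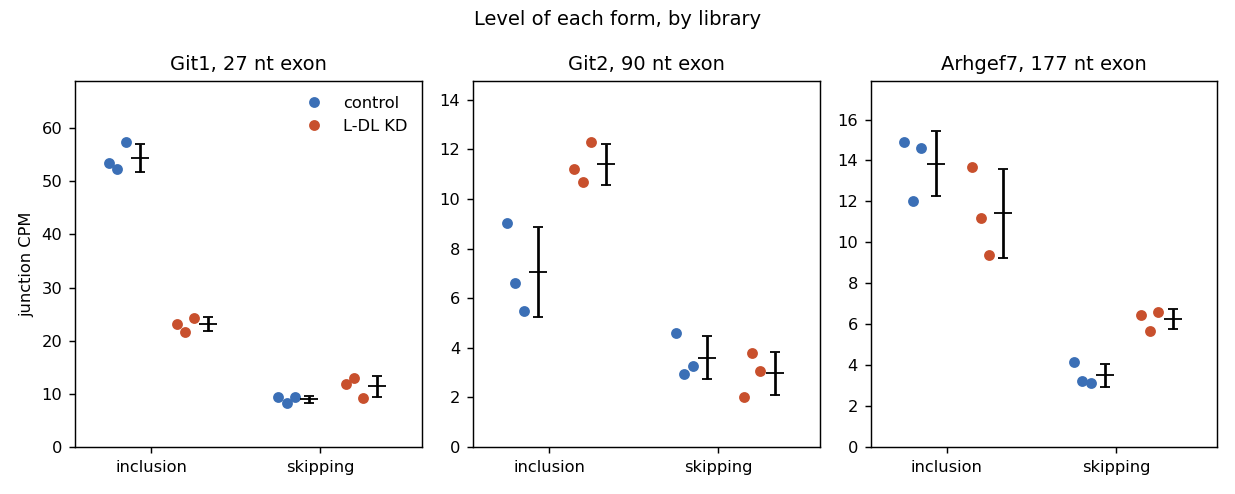
Junction reads of each form (with and without the exon) in junction CPM (reads per 1000000 junction counts), for 3 exons (each axis starts at 0). Points are the 3 control and 3 L-DL KD libraries, and the black line and bar give the mean and SD (n = 3). For Git1 the inclusion form went from 54.4 to 23.1, for Git2 the inclusion form from 7.04 to 11.4, and for Arhgef7 the skipping form from 3.50 to 6.23.

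A further Git1 event counts exon 7 (43 nt) against the same exon of 27 nt, and so shares reads with the event above. Its PSI, from reads of the exon 7 form against those of the other, was 0.262, 0.182 and 0.217 in control. In L-DL KD it was 0.487, 0.542 and 0.416, without overlap (adjusted p = 0.178 by edgeR). As a skipped exon, exon 7 had a PSI of 1 in every control library and of 1, 1 and 0.947 in L-DL KD. The values of this event are thus not the share of transcripts with exon 7. Retention of a Git1 intron of 492 nt (chr11:77503429-77503920) was 0.00967, 0.0104 and 0.0165 in control and 0.0213, 0.0293 and 0.0360 in L-DL KD. The L-DL KD values were all higher, and all were a few percent of transcripts (adjusted p = 0.231 by edgeR). The difference in mean PSI was 0.0167, or 0.0319 from reads not divided by effective length. An intron of 89 nt (chr11:77505591-77505679) was retained at a mean of 0.0242 ± 0.000477 in control and 0.0271 ± 0.00206 in L-DL KD (SD, n = 3), without overlap but with an adjusted p of 0.915 by edgeR.

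The Git2 exon of 90 nt went the other way from the Git1 exon. Its PSI was 0.552, 0.584 and 0.513 in control and 0.775, 0.639 and 0.715 in L-DL KD. The groups did not overlap, and the change of the log2 odds was 1.0 ± 0.48 (SE; adjusted p = 0.40 by edgeR). Inclusion reads were 7.04 ± 1.81 junction CPM in control and 11.4 ± 0.824 in L-DL KD (SD, n = 3), a ratio of 1.62 without overlap. Skipping reads overlapped, at 3.6 ± 0.866 and 2.96 ± 0.881 junction CPM (SD, n = 3). The Git2 exon of 6 nt, whose neighbours resemble those of the Git1 exon of 27 nt, had a PSI of 0.244, 0.177 and 0.458 in control and 0.0693, 0.139 and 0.130 in L-DL KD. It was lower in L-DL KD in every library, on only 12 to 35 reads a library (adjusted p = 0.493 by edgeR). A second event with the same 6 nt exon and another neighbour had a PSI of 0.205, 0.513 and 0.406 in control and 0.117, 0.212 and 0.343 in L-DL KD, with overlapping groups (adjusted p = 0.656 by edgeR).

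The Arhgef7 exon of 177 nt, one of the exons that distinguish the neuronal forms of β-PIX, had a PSI of 0.642, 0.649 and 0.702 in control and 0.514, 0.497 and 0.416 in L-DL KD. The groups did not overlap, on 108 to 159 reads a library (change of log2 odds -1.12 ± 0.41 SE, adjusted p = 0.288 by edgeR). Here the skipping form was higher, at 3.50 ± 0.571 junction CPM in control and 6.23 ± 0.493 in L-DL KD (SD, n = 3), a ratio of 1.78 without overlap. The inclusion form overlapped, at 13.8 ± 1.61 and 11.4 ± 2.17 junction CPM (SD, n = 3). The Arhgef6 exon of 21 nt had a PSI of 1, 1 and 0.898 in control and 0.784, 0.964 and 0.599 in L-DL KD, on 11 to 41 reads a library. The second L-DL KD library lay within the control range (adjusted p = 0.353 by edgeR). Skipping of this exon was read 1 time in the control libraries together and 22 times in the L-DL KD libraries together.

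Among the kinases, the Pak3 exon of 45 nt had a PSI of 0.340, 0.236 and 0.447 in control and 0.351, 0.0700 and 0.0474 in L-DL KD. The first L-DL KD library lay among the controls and the other two lay far below them, on 20 to 51 reads a library (adjusted p = 0.474 by edgeR). The Pak1 event with the smallest p, exon 7 (175 nt) against exon 8 (64 nt), had a mean PSI of 0.00759 in control and 0 in L-DL KD, on 6 and 0 reads of the rarer form (adjusted p = 0.437 by edgeR). Of the 6 reads, 5 were in the control library listed first, and without it the difference in mean PSI was -0.00215 instead of -0.00759. As skipped exons, exon 7 had a mean PSI of 1.0 in control and 0.997 in L-DL KD, and exon 8 had 0.999 and 1.0. The PSI of this Pak1 event is thus not the share of transcripts with exon 7. No Pak2 event was tested, since its 3 listed exons were included in nearly all reads.

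The one tested event of Rac1, exon 3 (118 nt) against exon 4 (63 nt), had a mean PSI of 0.452 ± 0.0193 in control and 0.484 ± 0.0189 in L-DL KD (SD, n = 3; adjusted p = 0.815 by edgeR). Its groups lay apart by a narrow margin. As skipped exons, exon 3 had a mean PSI of 0.998 in control and 1.0 in L-DL KD, and exon 4 had 0.999 and 1.0. Both exons were thus in nearly all reads, and the PSI of the tested event is not the share of transcripts with exon 3. The Rac1b exon of 57 nt was read 2 times in the control libraries together and 2 times in the L-DL KD libraries, beside 1717 and 2137 skipping reads. It was not tested, and Rac1b was thus close to the limit of detection in hippocampus of either group. Of the 25 untested events, 23 were skipped exons, and 19 of these were included at a PSI of at least 0.9 in every library.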

How the data were processed

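Poly(A) RNA of 6 hippocampi was sequenced as 150 nt read pairs aligned to GRCm38. The authors deposited raw counts per Ensembl gene and an rMATS table of junction counts in 5 event types; the submitters' processing notes list HISAT2 2.1.0, Bowtie 1.1.2 and HTSeq 0.6.1. The strand setting of the counting is not given in the sources used here. The rMATS p-values and PSI differences were not used. Its header names only a first and a second sample set. The first was taken as L-DL KD, from the study's definition of a PSI change and the order in the table's title. As a check, the ratio of junction counts between the sets was compared with that of gene counts (Spearman 0.906 over 8051 genes).

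Genes that reached 10 counts in 3 or more libraries were tested with edgeR 4.0.16 (TMM, quasi-likelihood). Junction counts were tested with edgeR on 12 columns, the inclusion and the skipping form of each library, for events averaging 20 or more counts per library, with 1 or more of each form. Adjusted p-values are Benjamini-Hochberg over all genes or events. DESeq2 1.42.0, limma 3.58.1, R 4.3.3, Python 3.11.15, pandas 2.3.3 and scipy 1.17.1 were also used. Both models were tested on simulated data. There the splicing model recovered effect sizes, but after adjustment it called few of the events that differed, fewer than the pass mark first set. That mark was then replaced, with the result known, by marks on effect size and false calls.

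Named were the 8 genes, and the Git1 exon of 27 nt and Git2 exon of 90 nt, taken as the exons that the paper names. For Git2 the exon number in the paper differs from that given here. By RT-PCR the paper reports more skipping of its Git1 exon and less skipping of its Git2 exon in L-DL KD. Also named were the event with the smallest p of each gene, events with p under 0.05 or groups apart, in each list the called gene with the largest rise and fall, and the 3 genes most like Git1. One pathway list, which is counted in the total of all lists, and 1 gene that the rule names are not reported here. The second 6 nt event was added after its values were seen. The length used for levels per kb, the levels by form and the exon neighbours compared were also settled after values or sequences had been seen. The members and lists were chosen with earlier results of these data known. The libraries are of separate mice as far as the labels say.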

Additional observations from a re-analysis of the deposited data

How the results depend on the processing

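Git1 and Pak1 were called under all 10 alternatives run for gene expression. Members called ranged from 2 to 5 when 1 library was left out, with 5 without L-DL KD replicate 1. Genes called ranged from 3498 to 6477 when 1 library was left out, and were 5379 with all. The log2 fold change of Arhgef6 ranged from -0.04, without control replicate 3, to 0.16 when 1 library was left out. Scaling by library size moved the median of all genes from 0.006 to 0.038 and called 5444 genes, 56.1% of them higher, beside 51.0% with TMM. Same-numbered libraries of the 2 groups did not clearly deviate together (r = 0.054, 0.127 and -0.107). Libraries of unlike number had r of -0.176 to 0.124. No pairing by number was seen, but 3 libraries a group cannot exclude one. With the replicate block 4635 genes and 2 members were called. No block could be fitted to the splicing table, whose libraries carry no replicate numbers. Splicing events called were 48, and 0 with limma (2469 at an unadjusted p under 0.05). They ranged from 0 to 52 when 1 library was left out, and no member event was called under any of the 10 alternatives. The cause was not tested. When 1 library was left out, the log2 difference of Pak3 to Pak2 ranged from -0.53 to -0.28, and that of Arhgef7 to Arhgef6 from -0.03 to 0.12. The other 3 paralog ratios kept their direction. The PSI change of the Git1 intron of 492 nt was 0.0319 without effective lengths, beside 0.0167. The Git2 6 nt, Arhgef6 21 nt and Pak3 45 nt exons had few reads, and leaving out 1 library gave PSI changes of -0.239 to -0.0978, -0.275 to -0.0921 and -0.282 to -0.13.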
